A study of Mus musculus with 17 samples.

Results

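The comparison described here is that of dorsal root ganglia from sham-operated mice labelled as knockout of Twik1 with ganglia from sham-operated wild-type mice. It covers 9 of the 17 bulk RNA libraries of the series, chosen by their sample titles. Of these, 4 are labelled knockout (sham knockout libraries 1 to 4) and 5 wild type (sham wild-type libraries 1 to 5). Every library came from lumbar ganglia L4 to L6 and carries the batch label day 30. The other 8 libraries were made after chronic constriction injury (CCI), in which the sciatic nerve is loosely tied, with 5 labelled wild type and 3 labelled knockout. Twik1 is the protein of the gene Kcnk1. The labels give no strain, age or sex, no agent, no description of the deleted part of the gene and no statement on whether the loss is limited to a cell type. Nor do they state that each library is a separate animal, and every p-value here measures the spread between libraries, which may be technical.

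TWIK1 belongs to the two-pore-domain potassium channels, which pass a background potassium current that helps to hold neurons at rest. A dorsal root ganglion holds the cell bodies of sensory neurons, each wrapped by satellite glia, together with the axons of those neurons, which Schwann cells ensheath. Myelinating Schwann cells wrap an axon in a compact membrane rich in galactolipids and myelin proteins, and surround themselves with a basal lamina of laminin, nidogen and type IV collagen, outside which fibroblasts lay down fibrillar collagen.

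The 4 sham knockout libraries held 52.8 to 59.4 M (M, mega) and the 5 sham wild-type libraries 54.5 to 73.6 M counts assigned to genes. The 10 most abundant genes took 4.22 to 4.30% of counts in the knockout-labelled and 4.57 to 4.76% in the wild-type libraries. Levels are TMM-scaled counts per M (CPM), which rank a gene between libraries but not genes of unequal length against each other. Changes are log2 fold changes, knockout label minus wild type, ± the standard error (SE) of the fit. A gene was called when edgeR's quasi-likelihood test gave a Benjamini-Hochberg adjusted p under 0.05 over the 23972 genes tested. The fit took in all 17 libraries, so the CCI libraries entered the spread behind each edgeR p-value. The labelled tissue was checked on neuronal markers: the 17 genes of the pan-neuronal and neurofilament list summed to 19079 to 20242 CPM in the knockout-labelled and 16505 to 21908 CPM in the wild-type libraries. Of these genes 0 were called, which does not set them apart, since only 1.001% of all tested genes were. Several libraries stood apart from their own group. Knockout libraries 1 and 2 carried high transcripts of the axon injury response (Atf3 at 141 and 103 CPM, against 9.42 to 16.8 CPM in the other 7 sham libraries), although they are labelled sham. The 7 red blood cell genes summed to 1839 CPM in knockout library 4 and to 99.8 to 637 CPM in the other 8, and the 20 interferon response genes to 1883 CPM in wild-type library 1 and to 280 to 542 CPM in the other 8.

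Transcripts of the targeted gene were present in every knockout-labelled library. Kcnk1 (ENSMUSG00000033998, GRCm39 chromosome 8, 126721842 to 126757440, plus strand) stood at 77.9, 75.1, 91.8 and 114 CPM in knockout libraries 1 to 4, and at 128, 134, 94.3, 139 and 139 CPM in wild-type libraries 1 to 5. Knockout library 4 lay above wild-type library 3, so the labels overlapped in this gene. The log2 change was −0.50 ± 0.12, with an edgeR adjusted p = 0.0659, and an exact permutation test of the mean log2 CPM, two-sided, gave p = 0.0317, where 126 arrangements allow no p below 0.0159. The call depended on the libraries: it was past the threshold without knockout library 4 (−0.64, edgeR adjusted p = 0.00218) and without wild-type library 3 (−0.58, edgeR adjusted p = 0.00688). Without knockout libraries 1 and 2 together the change was −0.29 (edgeR adjusted p = 0.62). Without library 1 or 2 alone it was −0.44 and −0.42 (0.226 and 0.229), and with sham libraries alone −0.49 (0.319). A count over the whole gene does not check a deletion whose extent is not given, so the libraries are called knockout-labelled throughout. Of the 172 other tested genes that start within 10 Mb of Kcnk1, 0 were called, against 1.001% of all tested genes. Among these 172, 24 (13.95%) had an unadjusted p under 0.05, against 11.4% of all tested genes.

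None of the other two-pore-domain channels was called. Of the 12 tested genes of that family 0 were higher and 0 lower, and the changes ran in both directions, with Kcnk10 (TREK2) at 0.45 ± 0.16, Kcnk12 at 0.30 ± 0.12 and Kcnk5 (TASK2) at −0.45 ± 0.18. Kcnk18 (TRESK), a background channel of sensory neurons, stood at 6.33 ± 0.96 CPM (SD, n = 4) against 7.32 ± 0.59 CPM (SD, n = 5), a change of −0.21 ± 0.15. Among 45 other potassium channel genes 1 rose and 0 fell, against 0.259% of all tested genes called higher and 0.743% called lower. The 1 was Kcnc4, a fast voltage-gated channel. It measured 54.6, 55.6, 66.7 and 39.5 CPM against 34.8 to 44.7 CPM (0.48 ± 0.11, edgeR adjusted p = 0.0458), and its labels overlapped. The 15 sodium channel, 18 calcium channel and 27 sensory transduction channel genes held 0 called members each. With 1.001% of all tested genes called, 0 calls in lists of this size, the two-pore channels included, do not set them apart.

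**Figure D1:**
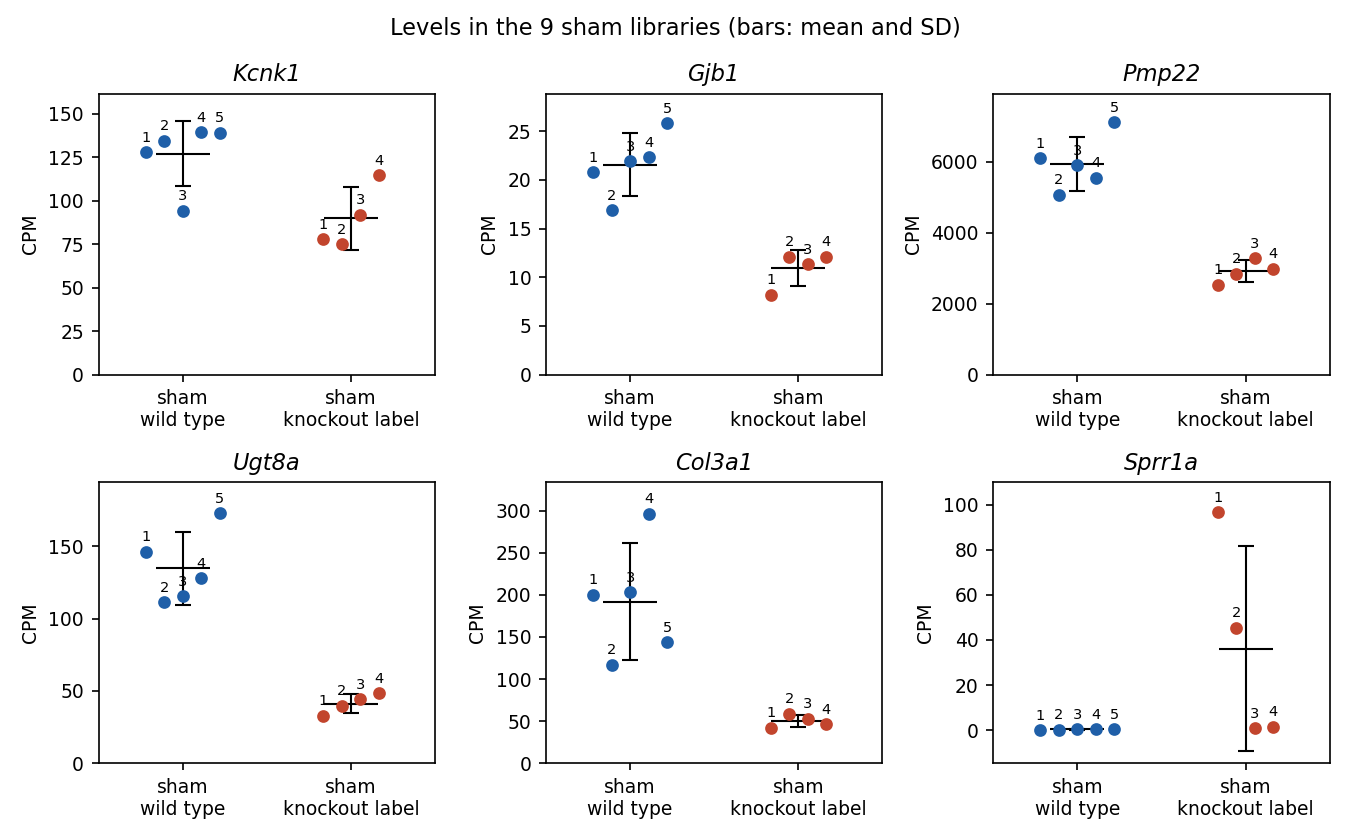
Level in CPM (vertical axis) of 6 genes in each of the 9 sham libraries, numbered as in the titles, with the mean and SD of each label. Kcnk1 overlaps between the labels, the myelin genes Gjb1, Pmp22 and Ugt8a and the collagen gene Col3a1 do not, and Sprr1a is high in knockout libraries 1 and 2 only. Labels without overlap were a condition for naming Ugt8a, Col3a1 and Sprr1a among the largest changes.

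Across all genes 240 were called (1.001% of those tested), 62 higher (0.259%) and 178 lower (0.743%) in knockout-labelled ganglia, and 223 of the 240 were protein coding. Those called lower included many genes of myelin and its galactolipids, of collagens with the proteins that fold them, and of the basal lamina. Their changes were mostly modest, with a median log2 change of −0.65, while the called higher genes had a median of 1.31. The median over all tested genes was 0.00, and 88 called genes changed by at least 2-fold, 39 higher and 49 lower. For 162 of the 178 lower genes no knockout-labelled library reached the lowest wild-type library, and 36 of the 62 higher genes were likewise separated. Over all tested genes 3.21% had labels that did not overlap, 2.08% with the knockout-labelled libraries below. The called genes had been chosen on these same libraries, which favours separation, so their higher share is no further support.

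**Figure D2:**
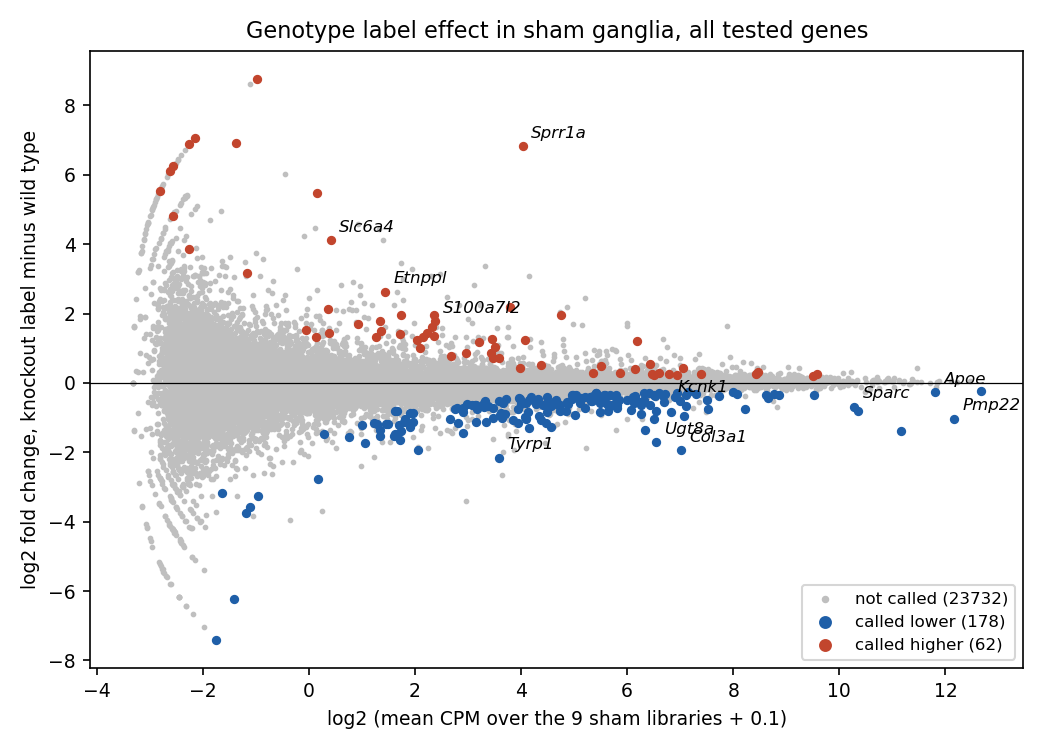
Log2 fold change between knockout-labelled and wild-type sham libraries (vertical axis) against the mean level over the 9 sham libraries (horizontal axis, log2 of CPM + 0.1) for the 23972 tested genes. The 178 genes called lower reach into the most abundant transcripts, among them Pmp22 and Apoe, whereas most of the 62 called higher lie at low levels.

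The lower and higher genes differed in how evenly the 4 knockout-labelled libraries carried them. Relative to the wild-type mean, the median log2 difference over the 178 lower genes was −0.76, −0.70, −0.61 and −0.62 in knockout libraries 1 to 4, with −0.15 to 0.09 in the wild-type libraries. Over the 62 higher genes it was 1.59 and 1.64 in libraries 1 and 2 but 0.52 and 0.50 in libraries 3 and 4. These medians describe genes that were chosen on the same libraries. With libraries 1 and 2 left out together, 37 genes were called, 5 higher (0.0197% of 25415 tested) and 32 lower (0.126%); 30 of the lower and 3 of the higher genes were called in both fits. All 178 lower genes kept a negative sign in that fit (median −0.62), and 61 of 62 higher genes a positive one (median 0.56). These signs were close to fixed in advance, because the genes had been called on libraries that remain in that fit.

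**Figure D3:**
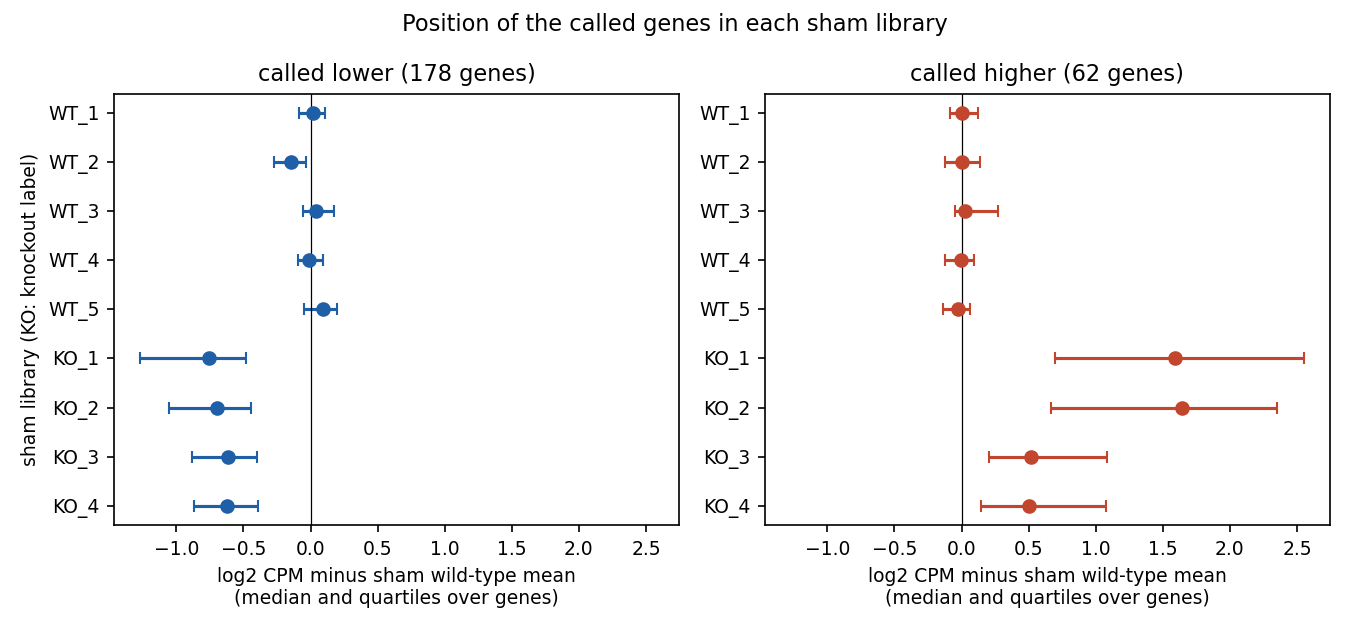
Log2 CPM minus the sham wild-type mean (horizontal axis) in each of the 9 sham libraries, as the median (point) and quartiles (bars) over the 178 genes called lower and the 62 called higher. The lower genes sit between −0.76 and −0.61 in all 4 knockout-labelled libraries, and the higher genes sit near 1.6 in libraries 1 and 2 and near 0.5 in libraries 3 and 4.

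The 250 bases before the start of 3 genes are printed here because Pmp22 and Ugt8a are myelin genes with large falls and Sprr1a had the largest rise of the named genes. The start is that of the Ensembl canonical transcript in GENCODE M39, the build is GRCm39, and each is written 5′ to 3′ on the gene's own strand. Pmp22 lies at chr11:63021367-63021616 on the plus strand, Ugt8a at chr3:125732283-125732532 on the minus strand and Sprr1a at chr3:92393209-92393458 on the minus strand. Capitals mark the letters ACAAAG (a SOX core), GCGTGGG (an EGR core) or TGAGTCA (an AP-1 core), searched on both strands.
Pmp22: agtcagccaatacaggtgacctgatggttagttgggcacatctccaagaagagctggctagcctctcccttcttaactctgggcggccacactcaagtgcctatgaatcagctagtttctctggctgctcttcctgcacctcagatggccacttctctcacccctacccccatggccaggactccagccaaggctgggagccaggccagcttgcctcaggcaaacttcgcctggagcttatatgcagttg
Ugt8a: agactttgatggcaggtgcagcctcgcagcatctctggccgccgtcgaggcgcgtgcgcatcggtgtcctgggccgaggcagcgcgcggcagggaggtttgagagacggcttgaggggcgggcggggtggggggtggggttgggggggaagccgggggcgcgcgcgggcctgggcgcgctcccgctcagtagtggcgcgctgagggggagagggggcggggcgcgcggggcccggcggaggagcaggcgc
Sprr1a: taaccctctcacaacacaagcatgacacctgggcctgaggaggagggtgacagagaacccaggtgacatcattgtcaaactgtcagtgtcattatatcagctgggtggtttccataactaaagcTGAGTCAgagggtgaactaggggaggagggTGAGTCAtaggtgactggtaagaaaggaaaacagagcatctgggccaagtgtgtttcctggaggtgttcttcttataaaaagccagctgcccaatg
The Sprr1a window held 2 matches to TGAGTCA, and those of Pmp22 and Ugt8a held none of the 3 motifs. ACAAAG was found in 15.9% of all 21770 protein-coding promoters and 13.8% of the 16063 of tested genes. The share was 17.8% of the 169 called lower, 20.4% of the 54 called higher and 4 of the 16 (25%) of the called myelin protein and lipid genes, Mbp, Cnp and Elovl1 among them. GCGTGGG was found in 4.62% of all promoters, 5.73% of those of tested genes, 7.69% of those called lower and 5.56% of those called higher. TGAGTCA was found in 4.02% of all promoters, 3.45% of those of tested genes, 4.73% of those called lower and in 6 of the 54 called higher (11.1%). A match is a run of letters and no record of a bound factor.

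Myelin protein genes were lower as a group. Of 24 tested, 12 fell and 0 rose, against 0.743% of all tested genes called lower, and all 24 had a negative change, with a list median of −0.51. Summed, the 24 genes reached 6333, 7252, 8274 and 8005 CPM in knockout libraries 1 to 4 and 12143 to 16927 CPM in the wild-type libraries. The 2 sets of sums did not overlap. In bulk tissue, fewer myelinating cells and less of these transcripts per cell cannot be told apart.

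Pmp22, a tetraspan protein of compact myelin, was at 2531, 2849, 3287 and 2982 CPM against 5073 to 7111 CPM (−1.03 ± 0.12, edgeR adjusted p = 0.000542). Gjb1, the gap junction protein connexin 32 of Schwann cells, was at 8.20, 12.1, 11.3 and 12.1 CPM against 16.9 to 25.8 CPM (−0.98 ± 0.13, edgeR adjusted p = 0.000308). Both genes were separated without overlap between the labels.

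Mbp, the basic protein of the cytoplasmic face, changed by −0.82 ± 0.16, the adhesion protein Mag by −0.80 ± 0.14, the raft protein Mal by −0.74 ± 0.10 and Cnp, a phosphodiesterase of non-compact myelin, by −0.44 ± 0.06. Cldn19, a tight junction protein, the small membrane protein Ncmap and Sh3tc2, a Schwann cell endosomal protein, were also called. Of 16 genes of the node of Ranvier and paranode 0 were called (median −0.09), which does not set them apart from the 1.001% of all tested genes called. The 2 of smallest p had labels that did not overlap, Gldn, gliomedin (−0.57 ± 0.15, edgeR adjusted p = 0.0831), and the adhesion protein Cadm4 (−0.38 ± 0.10, edgeR adjusted p = 0.0965), which was called after CCI (−0.60, edgeR adjusted p = 0.0187). Nfasc measured −0.13 ± 0.07 and Cntn2 −0.12 ± 0.07. Prx, a scaffold protein of the myelin sheath, missed the threshold (−0.70 ± 0.16, edgeR adjusted p = 0.0519) although its labels did not overlap.

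**Figure D4:**
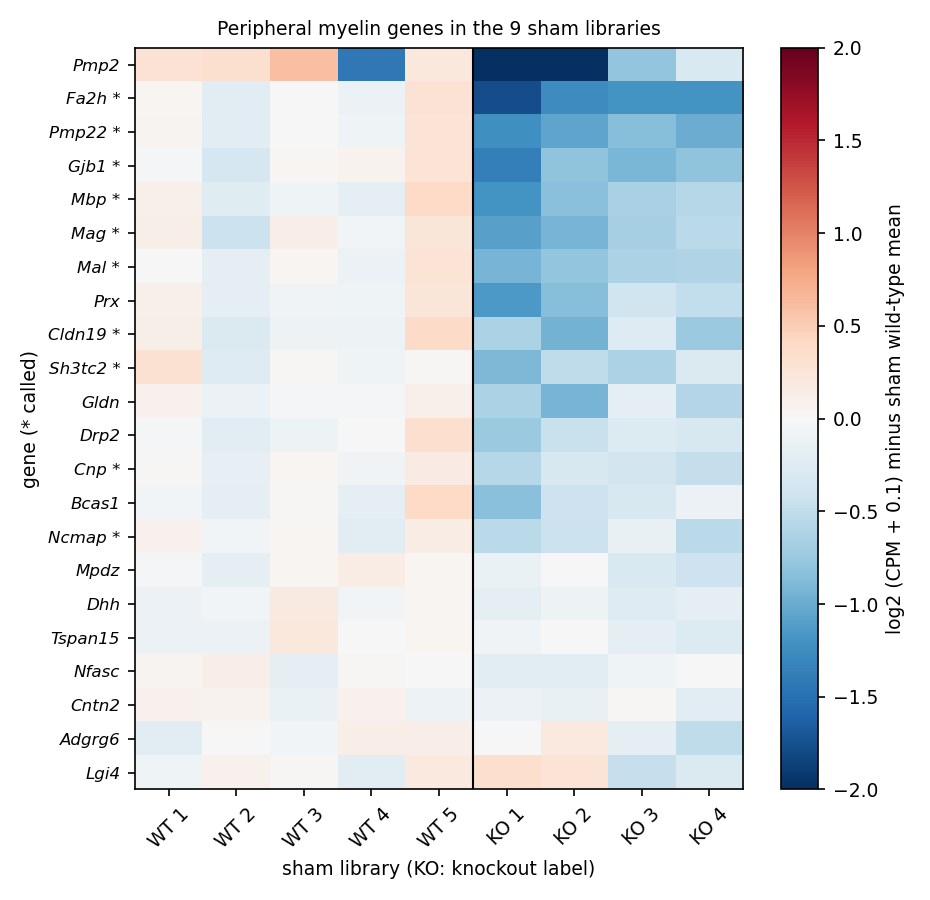
Log2 (CPM + 0.1) minus the sham wild-type mean (colour, blue for lower) for 22 of the 24 peripheral myelin genes (rows, sorted by fold change; an asterisk marks a called gene) in the 9 sham libraries (columns). The 10 called genes shown are blue in all 4 knockout-labelled libraries.

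Without knockout libraries 1 and 2 the myelin list kept its sign in all 24 genes (median −0.42), and 4 were called: Gjb1 (−0.87, edgeR adjusted p = 0.00934), Fa2h (−1.20, 0.0141), Cnp (−0.42, 0.0138) and Pmp22 (−0.92, 0.0403). Leaving out knockout library 1, knockout library 2 or wild-type library 5 alone left 7 called.

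Of 21 genes for myelin lipid synthesis 5 were lower and 0 higher, against 0.743% of all tested genes called lower. The other 16 were not called, 7 of the 21 had a positive change and the list median was −0.12. The summed level of the list overlapped between the labels, at 3715 to 4165 CPM in the knockout-labelled and 4023 to 4388 CPM in the wild-type libraries. Ugt8a, which makes galactosylceramide, was at 32.8, 39.6, 44.2 and 48.4 CPM in knockout libraries 1 to 4 and at 146, 112, 116, 128 and 173 CPM in wild-type libraries 1 to 5, a wild-type mean 3.27-fold higher (−1.71 ± 0.20, edgeR adjusted p = 0.00082). Its labels were far apart, but labels without overlap were a condition for the largest falls, so their separation is no further result. Fa2h, which adds the 2-hydroxyl group to the fatty acids of these lipids, was at 32.1, 46.0, 47.8 and 48.1 CPM against 95.2 to 134 CPM (−1.35 ± 0.15, edgeR adjusted p = 0.000542). Gal3st1, which turns galactosylceramide into sulfatide, changed by −0.72 ± 0.09 (edgeR adjusted p = 0.000126). The ceramide synthase Cers2 (−0.37 ± 0.07) and the fatty acid elongase Elovl1 (−0.52 ± 0.07) were the other 2. Fa2h is a member of the myelin protein list as well and is counted among the called genes of both lists. Of 24 cholesterol synthesis genes Lss fell (−0.30 ± 0.07), Acat2 rose (0.26 ± 0.06), and the median was 0.03.

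The transcription factors that drive the myelin programme were not called. Sox10 stood at 76.8 ± 4.26 CPM (SD, n = 4) against 85.7 ± 4.95 CPM (SD, n = 5), a change of −0.16 ± 0.07 (edgeR adjusted p = 0.35), and Egr2 at 12.4, 23.1, 27.8 and 24.5 CPM against 28.1 to 40.9 CPM (−0.73 ± 0.20, edgeR adjusted p = 0.109). The labels did not overlap in Egr2, although narrowly, and its fall was larger than the median of the myelin protein list (−0.51). Egr2 was thus not shown to be unchanged. Of 25 Schwann cell regulators 2 were lower and 0 higher, against 0.743% of all tested genes called lower. Both are links to the basal lamina: Dag1, dystroglycan (−0.48 ± 0.07), and the laminin receptor subunit Itga6 (−0.64 ± 0.14). Of 20 repair Schwann cell genes 0 were called (median −0.06), which does not set them apart from the 1.001% of all tested genes called.

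A minority of the collagen genes was called lower. Of 43 tested collagen chains 11 fell and 0 rose, against 0.743% of all tested genes called lower; 33 had a negative and 10 a positive change, with a median of −0.52. Summed, they reached 518, 586, 591 and 1055 CPM in knockout libraries 1 to 4 and 913 to 1548 CPM in the wild-type libraries, so library 4 overlapped the wild-type range. This list, and those of laminins with nidogens and of collagen folding, were drawn up from symbols after values had been seen. Col3a1, the chain of fibrillar type III collagen, was at 42.3, 58.6, 53.0 and 46.3 CPM in knockout libraries 1 to 4 and at 200.04, 117, 203, 297 and 144 CPM in wild-type libraries 1 to 5 (−1.94 ± 0.27, edgeR adjusted p = 0.00371). The wild-type libraries spread widely, yet each lay above every knockout-labelled one. Such separation was a condition for naming a gene among the largest falls, so it is no further result. Col4a1, a chain of the basal lamina collagen, was at 47.2, 56.9, 47.7 and 53.0 CPM against 82.3 to 112 CPM (−0.91 ± 0.10, edgeR adjusted p = 0.000137), and its partner chain Col4a2 changed by −0.85 ± 0.12. The fibril-associated Col14a1 (−1.15 ± 0.15), the fibril-initiating Col5a1 (−0.96 ± 0.17) and the microfibrillar Col6a3 (−1.12 ± 0.25) were also among the 11.

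Some of the basal lamina proteins that join type IV collagen fell. Of 13 laminin and nidogen genes 5 were lower and 0 higher, against 0.743% of all tested genes called lower, and 4 had a positive change (median −0.47). The linker Nid1 was at 52.8, 49.0, 46.5 and 44.0 CPM against 73.9 to 92.7 CPM (−0.79 ± 0.11, edgeR adjusted p = 0.00177), and Nid2 changed by −0.64 ± 0.12. The laminin chains Lamb1 (−0.54 ± 0.09) and Lamc1 (−0.52 ± 0.11) and the low-abundance Lamc3 (−1.53 ± 0.29) made up the rest. Lamc3 was one of the genes whose CCI value did not follow, at 0.10 ± 0.30 there.

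Kdelr3 had the smallest p in the whole comparison and is in the list of proteins that fold, export or cross-link collagen. That list was drawn up after values had been seen, so its holding of Kdelr3 is no support for a collagen pattern. Kdelr3, a receptor that returns proteins to the endoplasmic reticulum, was at 9.45, 10.3, 12.5 and 10.6 CPM against 20.3 to 25.5 CPM (−1.03 ± 0.11, edgeR adjusted p = 2.2e-05). Every knockout-labelled library lay well below the lowest wild-type one. Of the 30 genes of this list 5 were lower and 0 higher (median −0.31), against 0.743% of all tested genes called lower. The others were the collagen chaperone Serpinh1 (−0.83 ± 0.15), the lysyl hydroxylase Plod1 (−0.41 ± 0.09), the calcium-binding Rcn1 (−0.41 ± 0.08) and Lox (−1.29 ± 0.23), which cross-links collagen and elastin. Without knockout libraries 1 and 2 the calls were 2 of the collagen chains (Col4a1 and Col14a1), 3 of the laminins and nidogens (Lamb1, Lamc3 and Nid2) and 2 of this list (Kdelr3 and Plod1), with medians of −0.51, −0.47 and −0.31. Leaving out knockout library 1 or 2 alone left 6 and 5 of the collagen chains called.

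Of 26 fibroblast and matrix genes 6 were lower and 0 higher (median −0.64), against 0.743% of all tested genes called lower. Of the 6, 3 are collagens counted above. The others were Sparc, a matrix glycoprotein that binds collagen (816, 915, 964 and 1031 against 1307 to 1673 CPM, −0.68 ± 0.11), the tenascin Tnxb (−0.73 ± 0.15) and the small proteoglycan Fmod (−1.94 ± 0.42). Leaving out knockout libraries 1 and 2 left 1 of the 6 called, Col14a1, and a list median of −0.45. The 26 genes summed to 2187 to 2984 CPM in the knockout-labelled and 2832 to 4014 CPM in the wild-type libraries, with wild-type library 2 inside the knockout range. Of 22 endothelial and pericyte genes 1 fell, Emcn (−0.47 ± 0.11).

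Satellite glia showed a partial pattern. Of 18 markers 4 were lower and 0 higher (median −0.14), against 0.743% of all tested genes called lower. Without knockout libraries 1 and 2 the median was −0.31, with 17 of the 18 negative and 3 called lower, and after CCI 1 was lower and 1 higher (median −0.16). Ednrb, an endothelin receptor, was at 121, 101, 97.8 and 98.1 CPM against 124 to 187 CPM (−0.66 ± 0.09, edgeR adjusted p = 0.000749). Apoe, a lipid carrier that satellite glia make in quantity, was at 3517, 3337, 2934 and 3131 CPM against 3730.2 to 4120.5 CPM (−0.26 ± 0.05, edgeR adjusted p = 0.00947). Both were separated between the labels, although narrowly in the case of Ednrb. Fbln2, an extracellular matrix protein, was also called (−0.34 ± 0.07), and the defining markers Fabp7 (−0.12 ± 0.14), Glul (0.02 ± 0.07) and Kcnj10 (−0.20 ± 0.12) were not called.

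The largest fall of the named genes was that of Tyrp1, an enzyme of melanin synthesis (chromosome 4, 80752360 to 80769956). It was at 4.98, 5.82, 3.50 and 2.004 CPM in knockout libraries 1 to 4 and at 14.995, 14.3, 22.6, 19.7 and 19.1 CPM in wild-type libraries 1 to 5 (−2.15 ± 0.35, edgeR adjusted p = 0.00906). No other of the 6 tested melanocyte genes was called, and Kit was level (0.00 at 85.2 against 85.1 CPM). Crabp1, a retinoic acid binding protein, fell from 3.42 to 5.50 CPM in wild type to 1.80, 1.23, 1.73 and 1.19 CPM (−1.48 ± 0.21, edgeR adjusted p = 0.000542). Mboat1, a lysophospholipid acyltransferase, changed by −1.28 ± 0.16, the membrane protein Emp2, a relative of Pmp22, by −0.63 ± 0.08, Prrg3 by −0.80 ± 0.11 and Clec3b, tetranectin, by −1.73 ± 0.34. Low-abundance genes with large falls were C1qtnf6 (−1.64 ± 0.34), C1qtnf2 (−1.28 ± 0.28), Myrfl (−1.36 ± 0.30) and Smad6, an inhibitor of BMP signalling (−1.38 ± 0.29).

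Among the named genes called higher, S100a7l2 was the only one that stayed called without knockout libraries 1 and 2 (1.57, edgeR adjusted p = 0.0202). This member of the S100 calcium-binding family was at 7.22, 11.8, 7.56 and 6.95 CPM against 2.58, 1.88, 3.99, 1.87 and 1.91 CPM (1.78 ± 0.26, edgeR adjusted p = 0.000749), with all 4 knockout-labelled libraries above the wild-type range. Labels without overlap were a condition for naming a gene among the largest rises, so that separation is no further result, here or for Etnppl and Hcrtr1. Etnppl, a phosphoethanolamine lyase, was at 2.96, 7.88, 4.34 and 4.34 CPM against 0.236 to 2.01 CPM (2.63 ± 0.47, edgeR adjusted p = 0.0114). Hcrtr1, an orexin receptor, was at 18.4, 21.3, 16.0 and 8.31 CPM against 5.71 to 8.09 CPM (1.27 ± 0.23, edgeR adjusted p = 0.00934). Etnppl was high in all 4 libraries, whereas Hcrtr1 barely cleared the wild type in library 4. Lipg, an endothelial lipase (1.54 ± 0.38), Pla2g2d, a secreted phospholipase (1.44 ± 0.30), and Pmaip1, the cell death protein Noxa (1.31 ± 0.27), were higher at levels of 1.35 to 3.46 CPM.

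The remaining large rises were carried mainly by knockout libraries 1 and 2. Sprr1a, a protein that neurons make after axon damage, was at 96.5, 45.4, 0.838 and 1.51 CPM in knockout libraries 1 to 4 and at most at 0.538 CPM in the wild-type libraries (6.83 ± 1.31, edgeR adjusted p = 0.0262). Slc6a4, the serotonin transporter, followed at 5.76, 3.16, 0.419 and 0.960 against at most 0.311 CPM (4.12 ± 0.87, edgeR adjusted p = 0.0441). Nkain1 (13.99, 13.3, 3.68 and 3.01 CPM against 1.49 to 2.67 CPM) and Plaur, the urokinase receptor (33.0, 35.5, 13.6 and 17.1 CPM against 8.71 to 12.4 CPM), split in the same way. Without libraries 1 and 2 none of these 4 was called, at 1.91, 2.24, 0.60 and 0.56.

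Gabra5, a subunit of the GABA-A receptor, was the only called member of 24 inhibitory receptor genes, with 0.259% of all tested genes called higher. It showed that split as well, at 17.2, 20.7, 6.80 and 8.08 CPM against 4.74 to 6.53 CPM (1.18 ± 0.27, edgeR adjusted p = 0.047). Rgs20, a regulator of G protein signalling, changed by 1.44 ± 0.30, Tmc5 by 1.42 ± 0.26, Hes5, a Notch target, by 1.23 ± 0.25 and H2-M11, an MHC class Ib gene, by 1.79 ± 0.35. In the axon injury list as a whole 1 of 34 genes was called, Sprr1a, although 32 had a positive change and the median was 0.85. Relative to the wild-type mean the list's median was 1.40 and 1.27 in libraries 1 and 2 and 0.06 and −0.01 in libraries 3 and 4, and the list's fold change had a median of −0.02 without the first 2. Atf3 was at 141, 103, 11.1 and 13.2 CPM, and its change of 2.45 ± 0.66 (edgeR adjusted p = 0.11) became −0.01.

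Neuronal and immune lists held few calls. Of all tested genes 1.001% were called, so lists of this size would seldom hold a call. Their 0 counts therefore do not set them apart from other genes. Of the peptidergic, non-peptidergic, large myelinated and C-low-threshold lists, with 16, 18, 18 and 9 genes, 0 were called, and the medians ran from −0.17 to 0.24. Of 22 macrophage genes 0 were called (median 0.46), with sums of 255 to 436 CPM in the knockout-labelled and 216 to 296 CPM in the wild-type libraries, highest in knockout library 4. The neutrophil and lymphocyte list had 0 calls with sums of 85.4 to 750 CPM against 89.9 to 244 CPM, the highest again in library 4. The interferon response, MHC and complement, red blood cell, adipocyte and muscle, cell cycle, clock, stress, oxidative phosphorylation, mitochondrially encoded, ribosomal protein, synaptic release, axon guidance, node of Ranvier and neurotrophin lists held 0 called genes each. Their medians ran from −0.74 (interferon response, with the high wild-type library 1) to 1.44 (adipocyte and muscle, whose 18 genes summed to 1184 CPM in knockout library 3 and to 13.2 to 278 CPM in the other 8 sham libraries). Of 23 immediate early genes Ier3 rose (0.42 ± 0.10) and Nr4a1 fell (−0.35 ± 0.09). The part of the blood and immune transcripts of library 4 in the results was not tested; without that library 665 genes were called, 365 of them higher.

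The genotype labels were also compared after CCI. That comparison has 3 knockout-labelled libraries (numbers 2, 3 and 4) against 5 wild-type ones, and none of them is among the compared sham libraries. Both comparisons came from the same fit and share its estimate of each gene's spread, so their calls are not independent. In the table names a number of unstated meaning is shared by the 9 sham libraries and differs between the CCI groups; should it be a batch, batch and genotype label cannot be told apart after CCI. There 164 genes were called (0.684%), 120 lower (0.501%) and 44 higher (0.184%). Of the sham genes called lower, 64 (36.0%) were also called lower after CCI, where they made up 53.3% of the lower calls, and 172 of 178 had a negative change (median −0.49, with −0.01 over all tested genes). Of the 62 called higher, 4 (6.45% of them and 9.09% of the higher calls after CCI) were called higher in both, and 44 had a positive change (median 0.20).

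After CCI, Col4a1 changed by −1.06 ± 0.11 (edgeR adjusted p = 0.000182), Kdelr3 by −0.87 ± 0.12 (0.000689) and Tyrp1 by −3.00 ± 0.41 (0.00503). Each had the same direction as in sham. Of the 24 myelin genes 10 were lower after CCI (median −0.46), and of the 43 collagen chains 9 (median −0.54). The 4 genes higher in both were S100a7l2 (1.34 ± 0.28 after CCI), the kinase Cdk18, Rtl4 and a gene without a symbol, ENSMUSG00000095041.

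Sprr1a and Atf3 were high in every CCI library, at 87.8 to 371 CPM and 93.8 to 276 CPM, and the genotype label changed them there by −0.73 ± 0.97 and −0.40 ± 0.69, with neither called. The difference between both genotype effects was tested as an interaction. In edgeR with the low-count filter 0 genes passed (0.00%) and 1408 had an unadjusted p under 0.05. Without that filter edgeR called 77, and DESeq2 called 20 and limma-voom 4, so the count depended on the setting. The smallest adjusted p among the sham-called genes was that of Smad6 (0.102), which was at 0.932 to 2.25 against 3.30 to 5.97 CPM in sham and at 2.43 to 4.78 against 1.13 to 2.97 CPM after CCI. With the filter, 7 genes were called without sham knockout library 3, 4 without CCI wild-type library 3 and 1 without CCI knockout library 4.

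**Figure D5:**
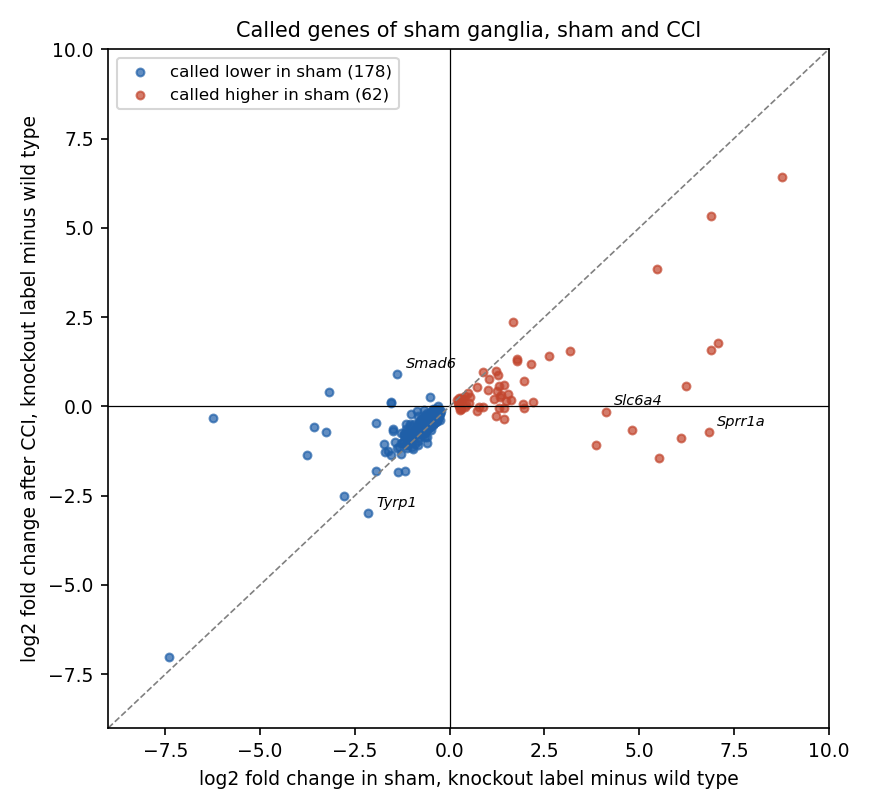
Log2 fold change by genotype label after CCI (vertical axis) against that in sham (horizontal axis) for the 240 genes called in sham; the dashed line marks equal change. Of the 178 lower genes 172 lie below 0 after CCI, and of the 62 higher genes 44 lie above 0.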

How the data were processed

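Per the labels' protocols, RNA came from a PicoPure extraction and cDNA from SMART-Seq v4, a method without strand, so overlapping and antisense genes cannot be told apart. Per the submitters' processing notes, the authors used bcl2fastq 2.20.0.422 and STAR 2.7.11a with the build GRCm39. What the authors deposited is a table of raw counts by Ensembl identifier for each library; how reads were counted is not given in the sources used here. Each table's 5 summary lines were dropped (no feature 4.03 to 4.55%, ambiguous 7.63 to 8.17% in sham libraries). GENCODE M39 matched 78168 of 78298 identifiers.

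All 17 libraries entered edgeR 4.0.16 (R 4.3.3) with a mean per group, filterByExpr (minimum count 10, total 15), TMM scaling and a robust quasi-likelihood F test, with 13 residual degrees of freedom. The labels do not say what the replicate numbers mean, and the main fit did not pair libraries by them. Named genes were the 15 largest rises and 15 largest falls among called protein-coding genes at 1 CPM or more with no overlap, the 10 of smallest p, up to 6 called members per list (2 of smallest p where none was called), the two-pore channels and 5 injury markers. Others are named as counts of 5 or fewer or as list members, chosen after their values were seen; some genes of the rule are not reported here. The 38 lists and the comparison were chosen with earlier results of these data known, and no list was tested as a set. Alternatives were DESeq2 1.42.0 (size factors and test), limma-voom 3.58.1, other low-count filters, sham libraries alone, a replicate block and leaving out libraries; leaving out knockout libraries 1 and 2 together was added after seeing the data. Figures used Matplotlib 3.10.9.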

Additional observations from a re-analysis of the deposited data

Results flagged for a closer look

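A single library lay far from the rest of its group by Dixon's gap test in 21 of 234 tests (117 named genes in each sham group). The critical value used flags about 1 in 20 groups by chance, and many of the genes were chosen on these same values, so the 2 shares are not a test. Among called genes these were Fa2h in knockout library 1 (32.1 CPM, the others 46.0 to 48.1), Ednrb there (120.6, others 97.8 to 101), C1qtnf2 there (1.59, others 2.15 to 2.27), S100a7l2 in knockout library 2 (11.8, others 6.95 to 7.56), Ier3 in knockout library 4 (16.1) and Etnppl in wild-type library 5 (2.01, others 0.236 to 0.715). For S100a7l2 and Fa2h the library apart was the one farthest from wild type, and for Ednrb the one nearest to it.

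Among genes that were not called, knockout library 4 stood apart in Jchain (21.4 CPM), Nkg7 (5.35), Slc4a1 (62.7), Ctss (24.9), H2-D1 (412) and Ntrk2 (94.8). The first 4, genes of plasma cells, killer lymphocytes, red blood cells and phagocytes, were high there and the last 2 low. Wild-type library 1 was high in Isg15 (21.3), Csf1 (31.9) and Kcnk12 (25.9), wild-type library 2 in Bdnf (42.1), and wild-type library 3 in Gal (144) and Adipoq (4.39). Kcnk1 was low in wild-type library 3 (94.3, others 128 to 139), Rpl13 low in wild-type library 4 (154.5) and Ntrk2 low in wild-type library 5 (115.0).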

How the results depend on the processing

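All 55 called named genes kept their direction under every alternative run. That was close to fixed by their selection, because they had been called on these libraries and many were named for labels without overlap. Of the 55, 29 kept their call in each of the 9 fits that left out 1 sham library. Over all genes 59 of the 178 called lower and 7 of the 62 called higher did so. The number of calls did depend on the setting. In sham it was 702 with no low-count filter (308 higher, 394 lower), 621 with DESeq2 (270 and 351), 69 with sham libraries alone (4 and 65) and 37 without knockout libraries 1 and 2 (5 and 32); limma-voom called 125 higher. Within a treatment, the deviations of same-numbered knockout-labelled and wild-type libraries had correlations of −0.01 to 0.12. Other forms of pairing were not tested. A replicate block gave 139 calls (30 higher, 109 lower), or 49 with sham libraries alone (7 and 42). After CCI the calls were 452 with no filter, 405 with DESeq2, 439 with limma-voom and 91 with the replicate block, and for the interaction 77, 20 and 4 in the first 3. Of the myelin genes 7 were lower with sham libraries alone, 4 with the block added and 4 without knockout libraries 1 and 2; of the collagen chains 5, 6 and 2, with 17 by DESeq2 and 7 with the block. Kcnk1 passed the threshold with no filter (−0.50, adjusted p = 0.000381), DESeq2 (−0.49, 0.00127) and limma-voom (−0.60, 0.0107), but not with the block (−0.48, 0.15), sham libraries alone with the block (−0.46, 0.496) or without knockout libraries 1 and 2 (−0.29, 0.62).

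With 1 library left out the sham calls ran from 88 to 665, the higher from 12 to 365, the lower from 74 to 300, those after CCI from 18 to 229, those of the interaction from 0 to 7, the myelin genes from 7 to 13, the collagen chains from 5 to 14 and Kcnk1 from −0.64 to −0.42. The sham count moved by over 1.5 times without knockout library 1 (96), 2 (88), 3 (471) or 4 (665), wild-type library 1 (144) or 5 (110), or CCI wild-type library 1 (156). It did so after CCI without CCI knockout library 2 (91), 3 (18) or 4 (54) or CCI wild-type library 1 (89), 2 (104) or 5 (73). The cause was not tested.

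Genes that changed sign had not been called. Without knockout libraries 1 and 2 they were Atf3 (−0.0065), Kcnk16 (−2.55), Csf1 (−0.21), Kcnk2 (−0.18), Kcnk6 (0.22) and Kcnk3 (−0.22). With 1 library left out, Kcnk3 ran from −0.042 (without wild-type library 1) to 0.37 and was also below 0 without knockout library 1 or 2, Kcnk6 ran from −0.78 to 0.010 (without wild-type library 2), Adipoq from −2.41 to 0.054 (without wild-type library 3) and Isg15 from −1.61 to 0.26 (without wild-type library 1). Slc4a1 changed sign with limma-voom (−1.67), sham libraries alone with the block (−0.86) and the block (−0.32). With 1 library left out it ran from −2.67 to 1.499, lowest without knockout library 4. Depth limits genes under about 1 CPM most.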
